A study of Homo sapiens with 24 samples.

Results

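The tubulin isotypes are the genes for the alpha and beta subunits from which microtubules are built. 10 of them were followed here: TUBA1A, TUBA1B, TUBA1C and TUBA4A among the alpha-tubulins and TUBB, TUBB2A, TUBB2B, TUBB2C, TUBB3 and TUBB6 among the beta-tubulins. They were chosen by the gene name that the array files give to a probe. The 10 genes, of 27363 genes or unnamed targets on the array, have 16 probes among the 34127 that are not controls. TUBB2C is now called TUBB4B, and the older name of the files is kept here.

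An alpha-tubulin and a beta-tubulin form a heterodimer, and heterodimers add to the ends of a microtubule and leave them. The isotypes of each subunit are encoded by separate genes whose proteins are nearly alike and differ most in their acidic tails, where many modifications are placed. TUBB, TUBA1B and TUBA1C are used by most dividing cells, whereas TUBB3 is best known as a marker of neurons and has also been studied in tumors treated with drugs that bind microtubules. Cells with an excess of free tubulin are known to degrade tubulin mRNA during translation, so mRNA levels of this family respond to the state of the microtubules as well as to transcription.

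The cells were HCT-116, a human colorectal cancer line, as a single stably transfected clone. All 4 groups therefore carry the Tet repressor and a FLAG-tagged DN-Tcf4 under a promoter that doxycycline opens. DN-Tcf4 is a Tcf4 without the part that binds beta-catenin, and it competes with the Wnt signaling complexes of the cell. Control cells (Ctl) had neither agent, NaB cells had 5 mM butyrate, Doxy cells had 4 μg/ml doxycycline, and DoxyNaB cells had both, for 17.5 hr with regard to butyrate. Butyrate is a short-chain fatty acid that inhibits histone deacetylases. Each of 6 experiments gave 1 array per treatment, and the study calls the 6 biological replicates. Nothing in the labels says how the cultures of different experiments were separated beyond their numbers, so the spread between experiments may be technical in part. Most p-values here come from limma, a linear fit with treatment and experiment as terms. It weighs a change against 1 spread per probe, left over all 4 treatments and drawn toward that of other probes. Such a p-value does not measure how the 1 change in question varied between experiments. The comparison NaB/Ctl asks how the tubulin genes respond to butyrate, DoxyNaB/Doxy asks the same in cells given doxycycline, and Doxy/Ctl and DoxyNaB/NaB ask what doxycycline changes without and with butyrate. Per the study, this clone makes little DN-Tcf4 with doxycycline alone and much with both agents, so Doxy/Ctl compares cells with little DN-Tcf4 and DoxyNaB/NaB those with much.

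Levels are log2 values of processed signal over the array's own 75th percentile, so that a level can be compared between arrays for 1 probe but not between probes. The share of spots well above background was between 52.7% and 88.1% per array. In experiment 1 the arrays with butyrate were on another slide than those without it, and were scanned on another day. Slide, scan day and butyrate cannot be told apart there. Each of the other slides held all 4 treatments. Of 8 markers of colorectal epithelium, 6 (CDH1, CDX2, EPCAM, KRT8, KRT18 and KRT19) were well above background on all 24 arrays, and CDH17 and VIL1 were on 2 and 5. Of the 16 tubulin probes, 15, for 9 of the 10 genes, passed the filter and were tested among 18983 probes. Where a gene has several probes, the tested probe of highest mean level stands for it. A gene was called at a limma adjusted p under 0.01, with the Benjamini-Hochberg adjustment over all probes tested.

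The probes are 60 bases long and have the sequence of the mRNA. A few are shown, because probes of 1 gene gave unlike changes and 1 of them is listed for 2 genes. No base is marked. Coordinates are those of the files, on NCBI36.
TUBA4A, chr2:219823907-219823966, minus strand: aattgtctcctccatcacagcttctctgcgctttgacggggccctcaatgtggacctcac
TUBA1C, chr12:47952552-47952611, plus strand: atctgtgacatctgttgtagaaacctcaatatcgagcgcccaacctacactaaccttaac
TUBB, chr6:30799884-30799943, plus strand: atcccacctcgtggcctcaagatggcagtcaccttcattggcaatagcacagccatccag
TUBB2A, chr6:3099904-3099963, minus strand: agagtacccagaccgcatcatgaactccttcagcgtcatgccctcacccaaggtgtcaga
TUBB2C, chr9:139257467-139257526, plus strand: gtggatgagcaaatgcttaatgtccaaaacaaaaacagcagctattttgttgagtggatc
The TUBA1C probe shown is the one of highest mean level, and the files list a transcript of TUBA1B beside that of TUBA1C for it. Its values are therefore uncertain between both genes. No other tubulin probe lists a transcript of another member. How far the probes match the mRNA of other isotypes was not tested.

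Butyrate moved the tubulin genes in opposite directions. TUBB3, TUBB2A, TUBB2C and TUBA4A were higher in NaB than in Ctl cells, each by more than 2-fold, and TUBB, TUBA1B and TUBA1C were lower, the first 2 by more than 2-fold. TUBA1A and TUBB6 did not pass the test, but each did in 3 of 23 alternatives. Among all 15192 genes tested, 40.6% were called higher and 29% lower in the same comparison, and 21% and 11.5% were so by more than 2-fold. The tubulin groups that did not overlap were these 4 higher and 3 lower, where 25.3% and 20% of all genes did not. TUBA1C is counted here by the probe that lists both genes, and by its other probe its groups overlapped. With the arrays scaled to their medians, 2 tubulin genes were higher and 3 lower, against 13% and 46.2% of all genes. Against this background, 4 of 9 higher and 3 of 9 lower is not a result about the tubulin genes as a group, and the sizes and directions of single isotypes are what the data show.

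**Figure D1:**
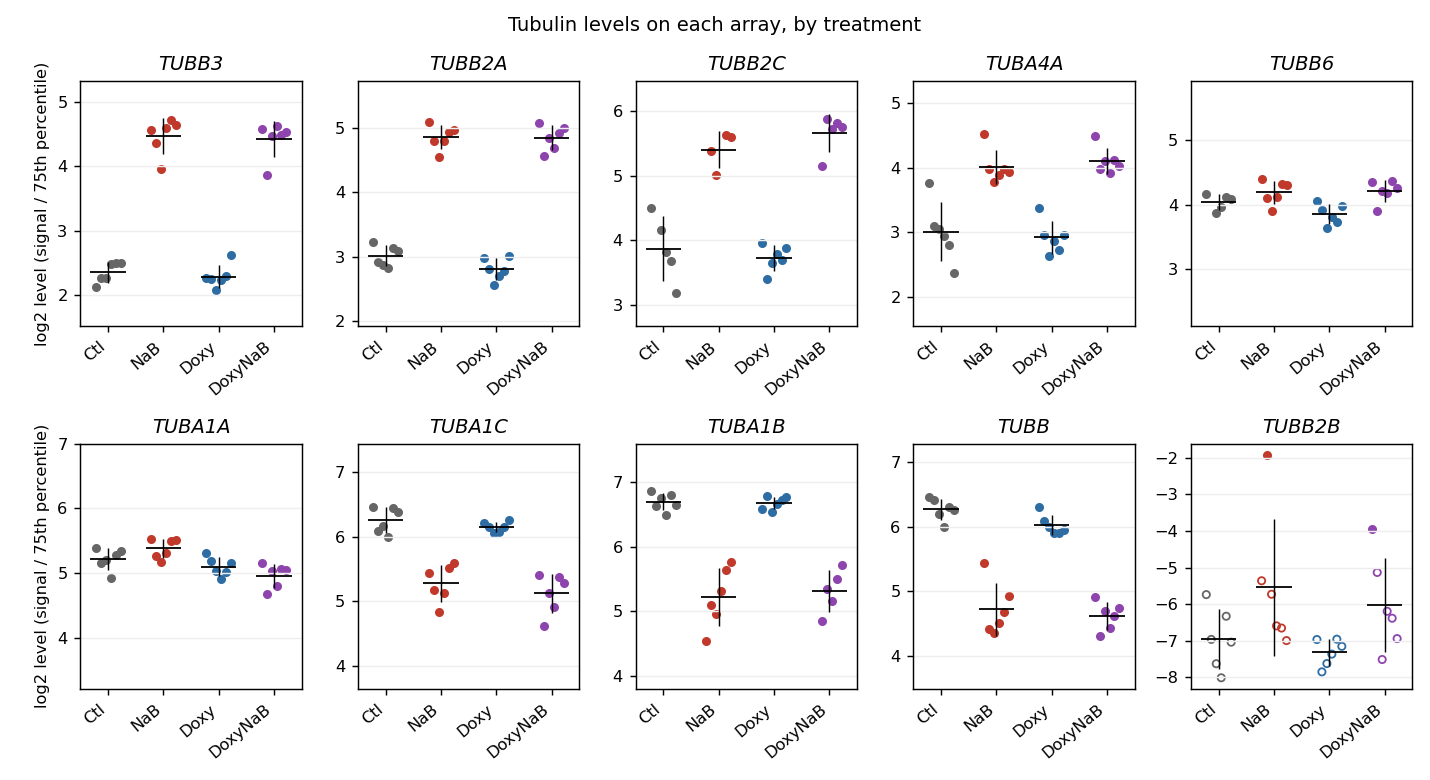
Level of each tubulin gene on each array (y axis, log2 of signal over the 75th percentile of the array), by treatment (x axis), with a y range of its own in each panel. A point is an array, open where the probe was not well above background; the horizontal line is the mean and the vertical line the SD. The panels of TUBB3, TUBB2A, TUBB2C and TUBA4A step up with butyrate without overlap, those of TUBA1C, TUBA1B and TUBB step down, and TUBB2B was near the background on most arrays.

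The largest rise was that of TUBB3, the beta-tubulin of neurons. Its level was 2.13 at the lowest, 2.38 at the median and 2.51 at the highest in Ctl cells, against 3.97, 4.58 and 4.72 in NaB cells. Every NaB array lay above every Ctl array. The log2 change was 2.12 ± 0.24 (SD over 6 experiments), which is 4.34-fold (limma adjusted p = 5.01e-12), and it was positive in 6 of 6 experiments. With doxycycline present the levels were 2.09, 2.26 and 2.62 in Doxy cells and 3.86, 4.51 and 4.63 in DoxyNaB cells. The change there was 2.13 ± 0.31 (limma adjusted p = 4.22e-12). The TUBB3 probe lies on chromosome 16 from 88529938 to 88529997 of NCBI36, on the plus strand.

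Since TUBB3 is a neuronal gene, the other neuron markers of the array are given beside it. Of 8, SNAP25 alone passed the background criterion on each of the 24 arrays. It was higher by 0.92 in NaB than in Ctl cells (limma adjusted p = 3.11e-10). STMN2, RBFOX3 and SYP passed the filter through butyrate-treated groups alone, so that their being higher there was in large part fixed by the filter. The median change of these 4 genes was 3.28, and 0.68 with normexp background correction. RBFOX3, which encodes the nuclear antigen NeuN, exceeded background clearly on 0 of 6 Ctl and 6 of 6 NaB arrays. NEFL, NEFM, ELAVL3 and ELAVL4 were well above background on at most 3 of the 6 arrays of any treatment. The summed level of the 8 markers was 0.366 to 0.504 times the 75th percentile on Ctl arrays, 1.23 to 2.35 on NaB arrays, 0.36 to 0.629 on Doxy arrays and 1.01 to 2.47 on DoxyNaB arrays. The same sum over 4 leukocyte markers was 0.141 to 0.389 on Ctl and 0.59 to 0.957 on NaB arrays. Over 5 fibroblast markers it was 0.291 to 0.519 and 0.217 to 1.08. The part of such genes in the result for TUBB3 was not tested, and in RNA of whole cultures a larger share of cells and more RNA per cell cannot be told apart.

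TUBB2A encodes a beta-tubulin that is abundant in brain and present at lower levels elsewhere. Its level was 2.82, 3.01 and 3.23 (lowest, median and highest) in Ctl cells and 4.55, 4.86 and 5.09 in NaB cells. The groups did not overlap, and the change of 1.84 ± 0.10 varied less between experiments than that of any other tubulin gene called by its representing probe (limma adjusted p = 2.88e-14). In Doxy cells the level was 2.55, 2.79 and 3.01 and in DoxyNaB cells 4.56, 4.88 and 5.07. That is a change of 2.04 ± 0.18, or 4.11-fold (limma adjusted p = 7.88e-15).

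TUBB2C encodes a widely expressed beta-tubulin that is also used in cilia. Its spot carried an outlier flag on 4 of 24 arrays (Ctl of experiment 2, NaB of experiments 1 and 4, DoxyNaB of experiment 1), and those arrays did not enter its values. On 5 Ctl arrays its level was 3.18, 3.82 and 4.51, and on 4 NaB arrays 5.01, 5.49 and 5.63. The groups did not overlap. The fitted log2 change was 1.73 with a SE of 0.24 (limma adjusted p = 1.29e-05), and 3 experiments had both arrays, with changes from 0.85 to 2.43. With the flagged spots kept, an alternative chosen after seeing the data, the change was 1.48 (limma adjusted p = 6.4e-07). By the methods' t-test on 3 pairs its adjusted p was 0.0852. With doxycycline the level was 3.40, 3.75 and 3.96 on 6 Doxy arrays and 5.16, 5.76 and 5.88 on 5 DoxyNaB arrays, a change of 2.03 (SE 0.23, limma adjusted p = 1.84e-06).

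TUBA4A was the only alpha-tubulin among the genes that rose. Its level was 2.36, 3.00 and 3.77 in Ctl cells and 3.77, 3.96 and 4.52 in NaB cells. The highest Ctl array and the lowest NaB array nearly touched, and neither group crossed the other. The change of 1.01 ± 0.32 (limma adjusted p = 1.12e-07) was just over 2-fold. In Doxy cells the level was 2.63, 2.91 and 3.38 and in DoxyNaB cells 3.92, 4.06 and 4.49, a change of 1.19 ± 0.19 (limma adjusted p = 1.25e-08). When each array was instead scaled to its median, with signals floored at 5, which moved the median change of all genes from 0.17 to -0.58 in NaB/Ctl, the change of TUBA4A was 0.26 (adjusted p = 0.335).

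TUBB, the beta-tubulin that most proliferating cells use, fell the most. Its level was 6.00, 6.28 and 6.46 in Ctl cells and 4.36, 4.59 and 5.44 in NaB cells. Every NaB array lay below every Ctl array. The change was -1.55 ± 0.35, 2.93-fold lower (limma adjusted p = 2.97e-10), and negative in 6 of 6 experiments. In Doxy cells its level was 5.90, 5.97 and 6.30 and in DoxyNaB cells 4.31, 4.65 and 4.90, a change of -1.41 ± 0.20 (limma adjusted p = 1.14e-09).

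TUBA1B encodes the alpha-tubulin most used by dividing cells. Its level was 6.50, 6.70 and 6.86 in Ctl cells and 4.53, 5.21 and 5.77 in NaB cells, where the arrays spread more widely (SD 0.46 against 0.13). The groups did not overlap, and the change was -1.48 ± 0.52 (limma adjusted p = 2.2e-07). In Doxy cells it was 6.53, 6.70 and 6.78, and on 5 DoxyNaB arrays 4.84, 5.34 and 5.71, the array of experiment 1 having an outlier flag. The fitted change was -1.41 (SE 0.17, limma adjusted p = 1.25e-06).

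TUBA1C encodes an alpha-tubulin nearly identical to that of TUBA1B. By the probe that lists both genes, its level was 5.99, 6.28 and 6.46 in Ctl cells and 4.84, 5.30 and 5.59 in NaB cells, without overlap. The change was -0.98 ± 0.19 (limma adjusted p = 1.94e-08). In Doxy cells the level was 6.06, 6.15 and 6.26 and in DoxyNaB cells 4.62, 5.20 and 5.41, a change of -1.03 ± 0.28 (limma adjusted p = 1.05e-08).

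TUBA1A is the main alpha-tubulin of developing neurons, and TUBB6 encodes the most divergent of these beta-tubulins. The level of TUBA1A was 4.92, 5.24 and 5.39 in Ctl cells and 5.16, 5.40 and 5.53 in NaB cells. Its change of 0.17 ± 0.14 was not called (limma adjusted p = 0.0339), and its 95% interval ran from 0.02 to 0.31. The level of TUBB6 was 3.87, 4.10 and 4.17 on 5 Ctl arrays, with the array of experiment 2 left out for its flag, and 3.91, 4.21 and 4.39 on 6 NaB arrays. Its fitted change of 0.17 (SE 0.07, limma adjusted p = 0.0396) was as large as the median change of all genes tested, 0.17. The groups of both genes overlapped. With quantile normalization both were called, TUBA1A at 0.27 (limma adjusted p = 0.000184) and TUBB6 at 0.41 (limma adjusted p = 2.15e-07). Scaled to the medians they were at -0.58 and -0.55. In the comparison DoxyNaB/Doxy, TUBB6 was called with a change of 0.36 ± 0.23 (limma adjusted p = 0.000206), higher in 5 of 6 experiments, where the median of all genes was 0.11. With the arrays scaled to their medians this turned to -0.20 (adjusted p = 0.451), and the call was lost in 6 further alternatives of 23, among them normexp (0.16, adjusted p = 0.282). Under median scaling the median of all genes was -0.45.

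TUBB2B, a beta-tubulin of the developing brain, was not tested. Its probe was well above background on 2 of 24 arrays, the NaB array of experiment 2 (level -1.92) and the DoxyNaB array of experiment 1 (level -3.96). Over all arrays its level ran from -8.01 to -1.92. It was not detectable on the other arrays at this signal.

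With doxycycline present, butyrate gave 5 tubulin genes higher and 3 lower of the 9 tested, where 38.1% and 30.3% of all genes were called, and 4 and 3 of them passed 2-fold (18.7% and 12.5% of all genes). The groups of 4 higher and 3 lower genes did not overlap (22.5% and 20.9% of all genes). TUBA1C counts in both only by the probe that lists both genes. By its other probe it was 1.31-fold lower and its groups overlapped. TUBB3, TUBB2A, TUBB2C and TUBA4A were higher in both comparisons, which 35.6% of all genes were, and TUBB, TUBA1B and TUBA1C were lower in both, which 27% were. No comparison shares its control arrays with the other here.

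**Figure D2:**
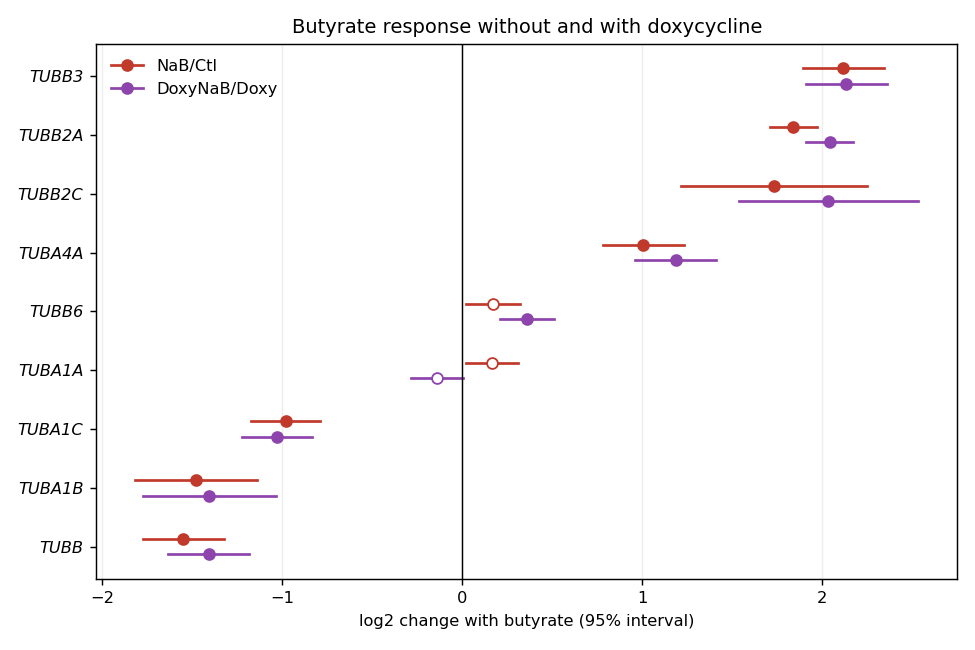
Log2 change with butyrate (x axis) of the 9 tubulin genes tested (y axis), without doxycycline (NaB/Ctl, red) and with it (DoxyNaB/Doxy, violet). Bars are 95% intervals from the fit, and filled points passed an adjusted p of 0.01. TUBB3, TUBB2A, TUBB2C and TUBA4A lie between 1.01 and 2.13, and TUBA1C, TUBA1B and TUBB between -1.55 and -0.98.

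The fit was run on all 24 arrays with the experiment as a block, so that a change is judged against the spread left over all treatments within experiments. Within the experiments of 1 scan (experiments 2 to 4), and within those of another (experiments 5 and 6), the same 7 genes were called in NaB/Ctl in the same directions as over all arrays. Called genes of both comparisons kept their direction under all alternatives except TUBB6, as given above.

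Doxycycline alone changed no tubulin gene past the threshold. In Doxy/Ctl, 0 of 9 genes were called with limma, where 0.553% of all genes were, and 3 (TUBB2A, TUBB and TUBB6) had an unadjusted p under 0.05; by the methods' t-test with adjustment the number called was also 0. TUBB2A changed by -0.21 ± 0.12 (limma adjusted p = 0.128), lower in 6 of 6 experiments, and TUBB by -0.25 ± 0.11 (limma adjusted p = 0.33), also lower in 6 of 6. The estimates of the 9 genes were all below 0, from -0.25 to -0.02, and their 95% intervals lay between -0.52 and 0.39. No other tubulin probe was called either. The TUBA4A probe shown above changed by -0.27 (limma unadjusted p = 0.000693, adjusted p = 0.0534). The TUBB probe that starts at 30800501 changed by -0.25 (limma unadjusted p = 0.00182, adjusted p = 0.0874). Both were lower in 6 of 6 experiments. The remaining probes changed by between -0.16 and -0.07. Among them, the one that lists TUBA1C without TUBA1B was lower in 6 of 6 experiments (limma unadjusted p = 0.0454, adjusted p = 0.382).

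In butyrate-treated cells, doxycycline went with a lower level of TUBA1A. Its level was 5.16, 5.40 and 5.53 in NaB cells and 4.67, 5.03 and 5.16 in DoxyNaB cells. The change of -0.42 ± 0.16 (limma adjusted p = 0.000786) was negative in 6 of 6 experiments and is 1.34-fold, and the groups did not overlap, as those of 1.4% of all genes in this direction. TUBA1A was the 1 gene of 9 called lower, where 2.03% of all genes were called lower in DoxyNaB/NaB. The call was lost in 9 of 23 alternatives, among them the fit with no replicate block (limma adjusted p = 0.0293), normexp (0.0303), a fit to the 12 arrays concerned alone (0.0536) and the fit without experiment 6 (0.0101). By their representing probes the other 8 genes changed by between -0.15 and 0.24, and 0 of them had an unadjusted p under 0.05. Of their other probes, the one that lists TUBA1C without TUBA1B changed by -0.23 (limma unadjusted p = 0.00698, adjusted p = 0.103). Both of TUBA4A changed by 0.18 and 0.19 (limma unadjusted p = 0.0156 and 0.00889, adjusted p = 0.167 and 0.119), each higher in 6 of 6 experiments.

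**Figure D3:**
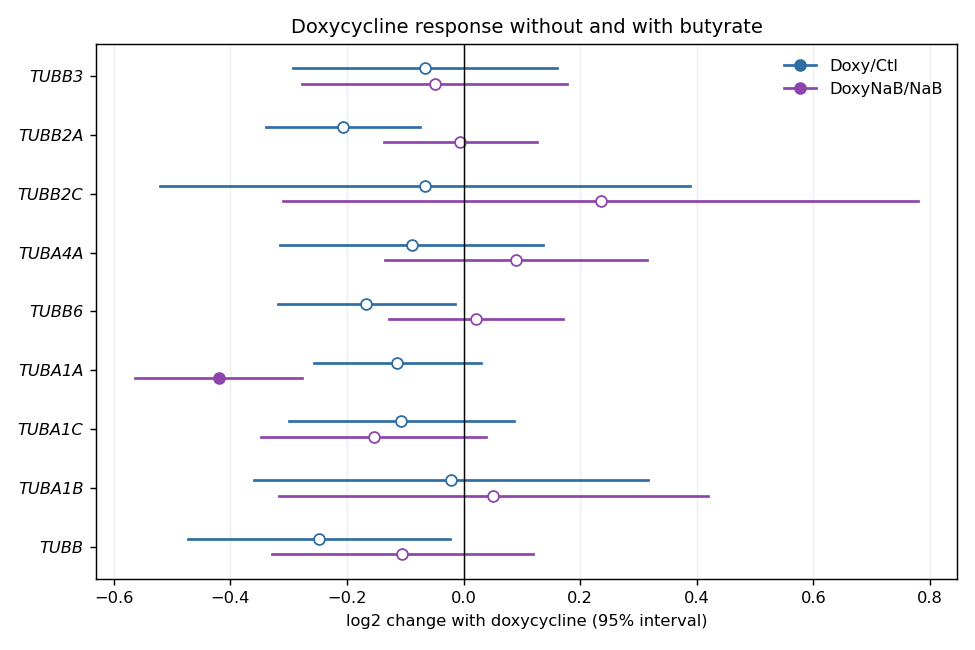
Log2 change with doxycycline (x axis) of the 9 tubulin genes tested (y axis), without butyrate (Doxy/Ctl, blue) and with it (DoxyNaB/NaB, violet). Bars are 95% intervals from the fit; the filled point, TUBA1A in DoxyNaB/NaB at -0.42, is the 1 that passed an adjusted p of 0.01.

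Whether the butyrate response itself differed with doxycycline was tested as the interaction, the change in NaB/Ctl minus that in DoxyNaB/Doxy. By the representing probes 0 of 9 genes passed with limma, where 1.36% of all genes did; 2 genes, TUBA1A and TUBB2A, had an unadjusted p under 0.05, and by the methods' t-test with adjustment 0 passed. For TUBA1A the difference was 0.31 (95% interval from 0.10 to 0.51, limma adjusted p = 0.136). For TUBB3 it was -0.02, with an interval from -0.34 to 0.30, and for TUBB -0.14, with an interval from -0.46 to 0.17. One probe that does not stand for its gene did pass: the TUBA4A probe shown above rose by 0.83 without doxycycline and by 1.28 with it, an interaction of -0.46 ± 0.21 (limma adjusted p = 0.0087), with the smaller rise in NaB/Ctl in 6 of 6 experiments. The representing probe of TUBA4A gave -0.18 (adjusted p = 0.715) and the remaining one -0.25 (adjusted p = 0.255). Without experiment 1, 2, 3, 4, 5 or 6 the adjusted p of the passing probe lay between 0.0113 and 0.0578. In all, the call was lost in 15 of 21 alternatives, among them normexp (-0.24, adjusted p = 0.608).

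For 4 of the genes more than 1 probe was tested, and the changes are set side by side. All probes of a gene moved in the same direction with butyrate. For TUBA1C, the probe that lists no TUBA1B transcript changed by -0.32 (limma adjusted p = 0.00073), against -0.98 by the probe that lists both genes. The difference of 0.66 ± 0.12 (SD, n = 6 experiments) had the same sign in 6 of 6 experiments (exact two-sided sign permutation test, p = 0.0312, the smallest that 6 experiments allow; adjusted p = 0.0417 over 12 comparisons of probes). In DoxyNaB/Doxy the values were -0.39 and -1.03. The fall of TUBA1C is thus 1.25-fold by 1 probe and 1.97-fold by the other.

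TUBB has 3 tested probes, and the representing one, shown above, gave the smallest fall. The probe that starts at 30800501 on chromosome 6 changed by -2.09 (limma adjusted p = 1.92e-14) and the one at 30800682 by -1.99 (limma adjusted p = 4.75e-13), against -1.55 for the one at 30799884. Both differences, -0.54 ± 0.28 and -0.44 ± 0.37, were negative in 6 of 6 experiments (exact two-sided sign permutation test, p = 0.0312 each). For TUBB2A the probe shown above rose by 1.60 and the representing one by 1.84, a difference of -0.24 ± 0.11 in 6 of 6 experiments (same exact test, p = 0.0312). The 3 probes of TUBA4A rose by 0.83, 0.84 and 1.01 in NaB/Ctl, and these did not differ beyond the spread between experiments (exact p = 0.0938 and 0.219). In DoxyNaB/Doxy the probe shown above rose more than the representing one, by 0.10 ± 0.07 in 6 of 6 experiments (exact p = 0.0312, adjusted p = 0.0417).

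**Figure D4:**
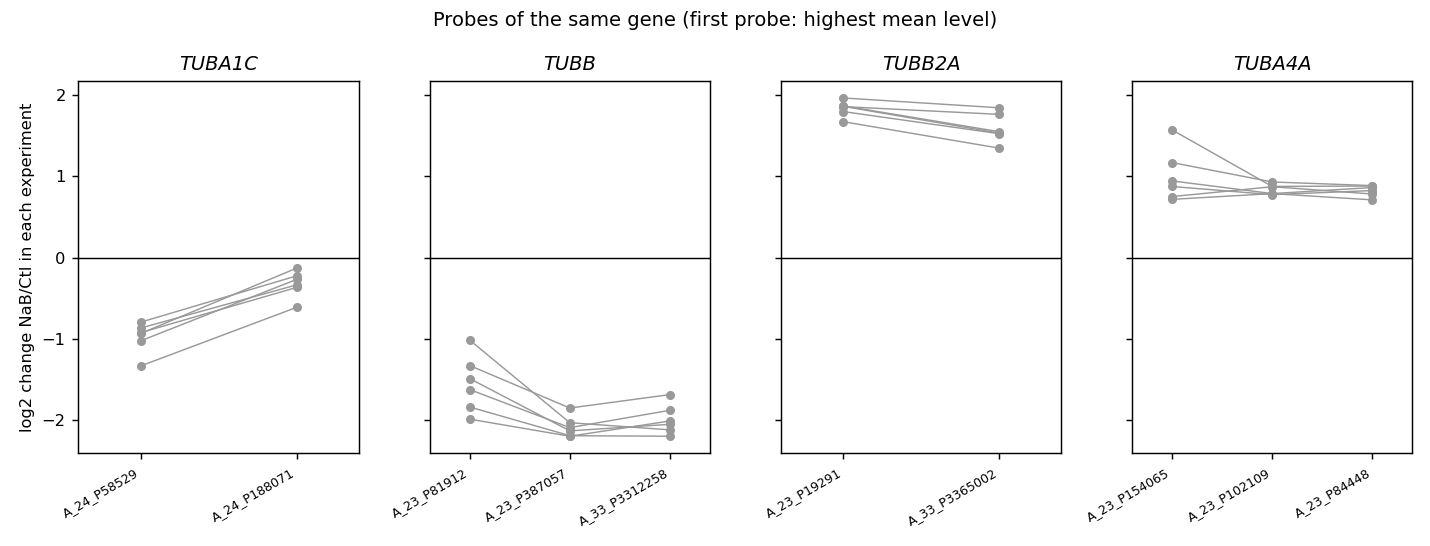
Log2 change in NaB/Ctl (y axis) of each tested probe (x axis) of the 4 genes with more than 1. A point is an experiment and lines join the values of an experiment; the probe of highest mean level comes first. The second TUBA1C probe lies above the first, and both other TUBB probes lie below the first, in every experiment.

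The genes whose levels followed a tubulin most closely were named by Pearson's r over the 24 arrays, with levels centred on the mean of their experiment; the arrays share the treatments, so a high r is a description. For TUBB3 these were TAOK3 (r = 0.997), a protein kinase, ODC1 (r = 0.997), the first enzyme of polyamine synthesis, and PPP2R3A (r = 0.996), a regulatory subunit of a phosphatase. Their mean levels went from -0.43 to 1.38, from 4.73 to 6.48 and from -1.49 to 0.85 between Ctl and NaB cells. For TUBB they were COQ9 (r = 0.992), which acts in coenzyme Q synthesis, HTATIP2 (r = 0.991) and TOMM22 (r = 0.991), a receptor of the mitochondrial import pore. TOMM22 went from 4.09 to 2.79. As many as 2226 genes had an r over 0.95 with TUBB3, and 1538 with TUBB.

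Lists of related genes are read against the 40.6% of all genes called higher and the 29% called lower in NaB/Ctl. Of 10 tubulins outside the 10 genes, 3 were higher in NaB than in Ctl cells and 0 lower, with a median log2 change of 0.08, against 0.17 over all genes. Scaled to the medians, 2 were higher and 5 lower, where 13% and 46.2% of all genes were. TUBB4A, a beta-tubulin of brain, rose by 1.72 (limma adjusted p = 3.07e-10), TUBB8 by 1.67 (limma adjusted p = 6.78e-12) and TUBA3C by 1.05 (limma adjusted p = 5.7e-12). TUBB8 and TUBA3C have near-identical copies in the genome, and their signal may include those. TUBG1, the gamma-tubulin that nucleates microtubules, changed by -0.05 (adjusted p = 0.652), and is named outside the rule, after its value was seen.

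Of 23 genes that fold tubulin, covering the CCT chaperonin, prefoldin and the tubulin cofactors, 14 were lower and 5 higher in NaB than in Ctl cells, with a median of -0.47, against 29% and 40.6% of all genes. By more than 2-fold 1 was lower and 0 higher, where 11.5% and 21% of all genes were. Under each scaling more genes of this list were lower than higher, but the shares of all genes moved too. Lower were 8 with normexp, 13 with quantile normalization and 17 with median scaling, where 22%, 30.6% and 46.2% of all genes were. Higher were 4, 5 and 0, where 23.8%, 32.7% and 13% of all genes were. PFDN4, a prefoldin subunit, changed by -1.03 (limma adjusted p = 8.46e-10), VBP1, another, by -0.99 (limma adjusted p = 4.03e-08) and TCP1, a CCT subunit, by -0.94 (limma adjusted p = 1.69e-08). The 5 that rose are tubulin cofactors or a relative of one, which assemble the heterodimer, while the cofactor TBCA was lower (-0.47, limma adjusted p = 4.26e-05) and is named after its value was seen. They include TBCC (0.96, limma adjusted p = 9.64e-05), TBCE (0.79, limma adjusted p = 1.68e-06) and TBCCD1 (0.67, limma adjusted p = 1.45e-09). With the arrays scaled to their medians, 0 of these were higher, and TBCCD1 went to -0.08. In DoxyNaB/Doxy 14 were lower and 5 higher, against 30.3% and 38.1% of all genes. These were not all the same genes, as TBCC was not called there (0.45, limma adjusted p = 0.0316).

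Of 18 genes that modify tubulin, 9 were higher and 1 lower in NaB/Ctl, against 40.6% and 29% of all genes. By more than 2-fold 8 were higher, where 21% of all genes were. The median of the list was 0.66, and 0.25 with normexp, 0.22 with quantile normalization and -0.09 with median scaling. The medians of all genes were 0.17, 0.08, -0.01 and -0.58 in the same order. Those named by the rule were TTLL6 (fitted change 3.48, limma adjusted p = 4.59e-09), TTLL1 (2.38, limma adjusted p = 1.41e-14) and TTLL3 (1.99, limma adjusted p = 1.96e-13), which belong to the ligases that add glutamate or glycine to tubulin tails. TTLL6 exceeded background clearly on 2 of 6 Ctl arrays and passed the filter through butyrate-treated groups alone, and its change ran from 0.96 to 3.58 over 21 alternatives. TTLL12 was lower (-0.73, limma adjusted p = 4.6e-07). TTLL1 was the 1 gene of these lists whose butyrate response differed with doxycycline, 2.38 without and 1.83 with it (interaction 0.55, limma adjusted p = 0.0066). That call was lost in 15 of 21 alternatives, among them normexp (0.21, adjusted p = 0.709). Of all genes tested, 1.36% were called for the interaction. Against that share, 1 gene among lists of 10, 23, 18, 27 and 5 genes is not a result about the lists. TTLL1 was also called higher in Doxy than in Ctl cells (0.53, limma adjusted p = 0.000843), where 0.461% of all genes were. It changed by -0.03 in DoxyNaB/NaB (limma adjusted p = 0.931). With the arrays scaled to their medians, 7 of the 18 genes were higher and 7 lower, where 13% and 46.2% of all genes were.

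Among microtubule-associated proteins, 14 of 27 were higher and 5 lower in NaB/Ctl, against 40.6% and 29% of all genes. STMN2, a stathmin of neurons, exceeded background clearly on 3 of 6 Ctl arrays; its fitted change was 4.88 (limma adjusted p = 1.22e-08) and ran from 2.00 to 5.99 over 21 alternatives. MAP2, a protein of dendrites, rose by 3.27 (limma adjusted p = 4.15e-14), and MAPRE3, which binds growing ends, by 2.32 (limma adjusted p = 1.06e-13). CLIP1, which also tracks growing ends, changed by -1.52 (limma adjusted p = 5.36e-10), STMN3 by -1.27 (limma adjusted p = 9.49e-11) and STMN1, a stathmin that sequesters tubulin dimers in dividing cells, by -0.82 (limma adjusted p = 4.3e-07). STMN2 is also one of the neuron markers above. Scaled to the medians, 6 of these genes were higher and 8 lower, where 13% and 46.2% of all genes were.

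Of 5 genes for severing enzymes and their relatives, 3 were higher and 0 lower in NaB/Ctl, against 40.6% and 29% of all genes. FIGNL1 rose by 1.24 (limma adjusted p = 9.47e-11), KATNAL2 by 1.09 (limma adjusted p = 0.000132) and KATNA1, the catalytic subunit of katanin, by 0.41 (limma adjusted p = 2.49e-06). Scaled to the medians 0 were higher and 1 lower, where 13% and 46.2% of all genes were, and KATNA1 went to -0.33. The call of KATNAL2 was lost in 4 of 21 alternatives, among them quantile normalization (0.02, adjusted p = 0.968).

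**Figure D5:**
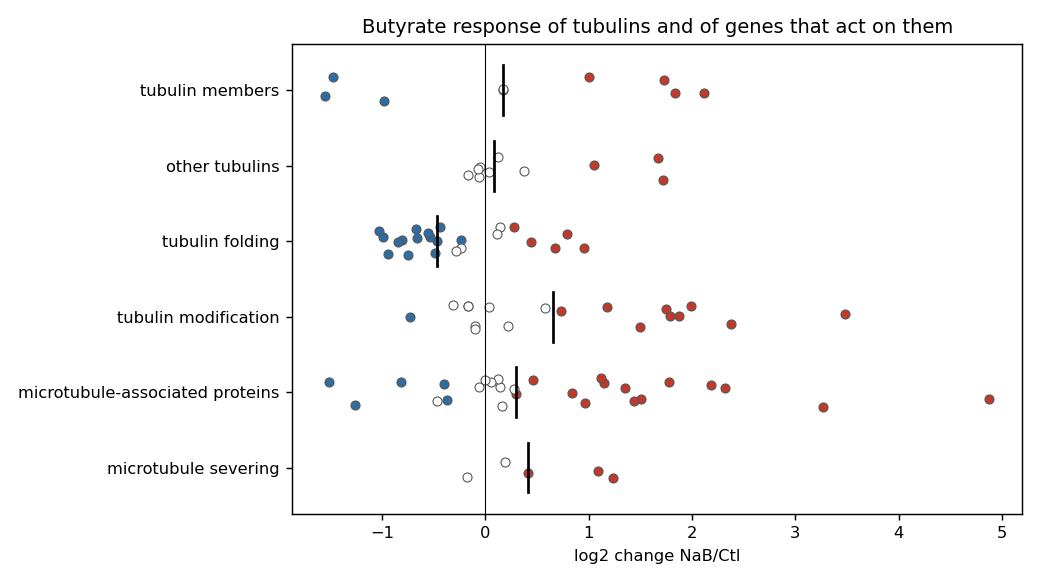
Log2 change in NaB/Ctl (x axis) of the 9 tubulin genes tested and of 5 lists of related genes (y axis). A point is a gene, red or blue where it was higher or lower at an adjusted p under 0.01 and open otherwise, spread vertically for legibility; the black line is the median of the list. The folding genes sit mostly below 0 (median -0.47) and the modifying genes mostly above it (median 0.66).

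The promoters of the isotypes were read from RefSeq (GRCh38.p14) as the 250 bases before to the 50 bases after each start; all 10 genes were found, with 15 starts in all. CCAAT, searched on both strands, was in 9 of 15 (34.6% of all promoters), GGGCGG, the core of a GC box, in 9 of 15 (45%), TATAAA in 1 (11.5%), and ATCAAAG, a Tcf site, in 0 (2.62%). Starts of genes that rose and of genes that fell both held GGGCGG. A pair of promoters is shown, for their 140 bases before it, one of a gene that rose and one of a gene that fell, with GGGCGG on either strand in capitals. The stretch of TUBB2A holds it 4 times and also holds the 1 TATAAA, and that of TUBA1B holds it 3 times, with 2 matches overlapping.
TUBB2A, chr6:3157545-3157684, minus strand: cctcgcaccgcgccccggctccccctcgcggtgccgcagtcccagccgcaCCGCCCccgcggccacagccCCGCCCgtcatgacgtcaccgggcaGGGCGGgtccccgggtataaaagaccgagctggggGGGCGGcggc
TUBA1B, chr12:49131396-49131535, minus strand: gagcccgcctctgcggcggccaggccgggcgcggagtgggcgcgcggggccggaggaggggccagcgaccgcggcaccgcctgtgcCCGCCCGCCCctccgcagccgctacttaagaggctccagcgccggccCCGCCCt
A match is a description of letters and no evidence of binding.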

How the data were processed

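Gene expression was measured on 24 one-colour Agilent arrays. The authors deposited the scanner output of each array, in which the processed signal intensity, per the file headers made by Agilent Feature Extraction 9.5.3.1, is corrected for background and not scaled between arrays. From it, log2 levels relative to the array's 75th percentile of non-control spots (between 380.2 and 1323 signal units) were computed, without outlier-flagged spots (359 to 795 per array). Probes flagged as well above background on every array of 1 or more treatments were fitted with limma 3.58.1 in R 4.3.3, with treatment and experiment as terms; the fit was tested on simulated data. The number of arrays limits the precision. A paired test in the study's methods is why the experiment is a block: levels of arrays of 1 experiment, centred on their treatment, correlated with r over 0.1 in 35 of 36 pairs (-0.224 in 1 pair, NaB with DoxyNaB of experiment 3, and otherwise 0.219 to 0.853). Companion genes named are the 3 largest called rises and falls of each list in NaB/Ctl and any called interaction, and all 10 tubulin genes. The members and lists were chosen with earlier results of these data known. Figures were made with Python 3.11.15 and matplotlib 3.10.9. A result of 1 gene and 1 probe sequence are not reported here, and the gene is left out of its list.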

Additional observations from a re-analysis of the deposited data

Results flagged for a closer look

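A few levels, 5 in all, stood apart among the tubulin levels, where 40 combinations of gene and treatment were looked at and about 1 in 20 is flagged by chance. A level was taken to stand apart when its gap to the next array was large against the range of its treatment. TUBA4A was at 4.52 on the NaB array and at 4.49 on the DoxyNaB array of experiment 1, above the next arrays at 3.98 and 4.11. TUBB2B was at -1.92 on the NaB array of experiment 2, with the next array at -5.36. On the DoxyNaB array of experiment 2, TUBB2C was at 5.16 and TUBB3 at 3.86, below the next arrays at 5.73 and 4.47. Without experiment 2, and also without both butyrate arrays whose negative controls were highest, one of which is this array, TUBB2C and TUBB3 remained called in both butyrate comparisons.

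A pair of butyrate responses differed with doxycycline by the interaction test of limma, which called 1.36% of all genes tested. The TUBA4A probe on chromosome 2 from 219823907 to 219823966 had an interaction of -0.46 (adjusted p = 0.0087), and TTLL1 had one of 0.55 (adjusted p = 0.0066). The mean level of TTLL1 was -2.59 in Ctl and -2.06 in Doxy cells, and -0.21 in NaB and -0.23 in DoxyNaB cells. For both, leaving out any experiment raised the adjusted p above 0.01, to between 0.0113 and 0.0578 for TUBA4A and between 0.0165 and 0.0662 for TTLL1.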

How the results depend on the processing

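The alternatives changed the tubulin counts as follows. Under scaling to each array's median, with signals floored at 5, 2 genes instead of 4 were higher in NaB/Ctl (3 lower) and 3 instead of 5 in DoxyNaB/Doxy (4 lower). The shares of all genes called higher and lower under this scaling were 13% and 46.2% in NaB/Ctl. They were 14.3% and 39.5% in DoxyNaB/Doxy. The 1 gene lower in DoxyNaB/NaB, TUBA1A, became 0 with that scaling, normexp, no replicate block, a fit to the compared arrays alone, the methods' t-test with adjustment, a fold over 2, experiments 2 to 4 only and experiments 5 and 6 only, and between 0 and 1 when each experiment was left out (0 without experiment 6). Under the other settings the counts stayed within 1.5 times. Among called values, signs turned for TUBB6 in DoxyNaB/Doxy (-0.20), TBCCD1 in NaB/Ctl (-0.077) and KATNA1 in NaB/Ctl (-0.33) and DoxyNaB/Doxy (-0.17), and among values of the butyrate comparisons not called for TUBA1A and TUBB6 in NaB/Ctl (-0.58 and -0.55) and TBCC in DoxyNaB/Doxy (-0.11), all with scaling to the median, and the cause was not tested beyond the shift of the median of all genes to -0.58 and -0.45. Without the replicate block, the counts in NaB/Ctl were 4 higher and 3 lower and those in DoxyNaB/Doxy 5 and 3. Keeping flagged spots and taking TUBA1C by its own probe were chosen after seeing the data and changed no count by over 1.5 times. Dim probes limit what can be said of TUBB2B, which gave 1.41 in NaB/Ctl without a filter (adjusted p = 0.052).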
